A study of Mus musculus with 6 samples.

Results

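The genes described here are 54 axon and vessel guidance genes. These comprise secreted and membrane-bound semaphorins, their plexin receptors, netrins, netrin receptors, Slits and Robos, and ephrins with their Eph receptors. They were chosen by gene name from a list of guidance ligands and receptors that act on retinal vessels and axons, and all 54 were found among the 28627 genes of the deposited table. Of the 54, 31 are ligands and 23 are receptors, and 53 passed a filter on low values that left 16681 genes to test. The libraries are 3 Emcn-/- and 3 Emcn+/+ mouse retina samples taken at postnatal day 15 of oxygen-induced retinopathy, from littermates, and both genotypes went through the model. In this model, pups are held in high oxygen so that retinal capillaries regress, and after return to room air the under-perfused retina becomes hypoxic and sprouts new vessels. Endomucin, the Emcn product, is a mucin-like glycoprotein on the luminal side of endothelial cells. The labels give neither the construction of the Emcn allele nor whether a sample is 1 animal. The tests below therefore rest on how far these 6 samples vary, and that variation may be technical.

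Guidance cues steer growing axons and sprouting capillaries through shared receptors. Class 3 semaphorins are secreted and act through plexins, mostly with a neuropilin as co-receptor, while other semaphorins are anchored in the membrane and bind plexins directly. Secreted netrins such as Ntn1 attract through Dcc and Neo1 and can repel through the Unc5 receptors. Slits act on Robo receptors, and ephrins on a cell signal to Eph receptors on the next. In the developing retina these cues place ganglion cell axons and the layers of the inner plexiform neuropil. In the hypoxic retina, Sema3a and Sema3e from neurons are known to repel vessels, the Sema3e receptor Plxnd1 and the venous receptor Ephb4 sit on endothelium, and Slit2 with Robo1 and Robo2 promotes sprouting.

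Promoter sequences are shown for 4 guidance genes, so that the regulatory DNA can be read beside their values. They had the 4 smallest p-values among those with a single RefSeq entry that do not lie on the chromosome of Dcc. The guidance genes with the 2 smallest limma p-values, Dcc and Plxna4, are not among them. Each is the 250 bases before the RefSeq start on GRCm38.p6, plus strand, 5′ to 3′: Sema3c at chr5:17574566-17574815, Sema5a at chr15:32244563-32244812, Plxna2 at chr1:194619579-194619828 and Slit2 at chr5:47982905-47983154. The RefSeq starts lie downstream of the GENCODE gene starts given below. Capitals mark ACGTG, a form of the hypoxia-response core, searched on both strands. Other forms of the core were not searched.
Sema3c: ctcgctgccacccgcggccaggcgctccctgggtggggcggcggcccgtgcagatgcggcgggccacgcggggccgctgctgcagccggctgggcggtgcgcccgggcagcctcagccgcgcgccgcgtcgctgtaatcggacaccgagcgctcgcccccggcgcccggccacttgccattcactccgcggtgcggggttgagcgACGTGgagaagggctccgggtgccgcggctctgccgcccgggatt
Sema5a: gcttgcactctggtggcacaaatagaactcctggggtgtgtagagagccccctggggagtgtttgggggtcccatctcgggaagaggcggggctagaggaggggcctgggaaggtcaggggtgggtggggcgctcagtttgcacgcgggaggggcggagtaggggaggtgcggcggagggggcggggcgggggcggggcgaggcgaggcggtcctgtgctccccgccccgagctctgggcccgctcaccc
Plxna2: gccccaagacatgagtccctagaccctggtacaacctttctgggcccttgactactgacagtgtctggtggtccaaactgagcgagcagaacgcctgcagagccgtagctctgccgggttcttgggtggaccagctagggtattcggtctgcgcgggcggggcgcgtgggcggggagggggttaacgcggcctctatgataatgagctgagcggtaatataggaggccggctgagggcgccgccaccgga
Slit2: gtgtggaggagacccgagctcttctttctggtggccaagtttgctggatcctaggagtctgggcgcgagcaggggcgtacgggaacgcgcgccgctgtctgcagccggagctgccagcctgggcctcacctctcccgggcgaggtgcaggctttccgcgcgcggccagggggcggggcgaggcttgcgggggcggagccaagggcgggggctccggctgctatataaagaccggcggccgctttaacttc
Only the Sema3c window held ACGTG among these 4 windows, with its first base 45 bases before the start. Of the 44 guidance genes with an entry, 9 held ACGTG in such a window (20.5%), beside 18.5% of all 27025 genes with an entry. All 4 windows were rich in G and C, between 62.8% for Plxna2 and 78.4% for Sema3c.

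Each library held between 14865868 and 17087621 reads assigned to genes. Values are normalised reads, that is, reads divided by 1 factor per library and not adjusted for gene length, and 1 read was worth 0.924 to 1.09 of them. Emcn had 1.95, 1.04 and 4.62 normalised reads in the Emcn-/- libraries, against 93.3, 80.6 and 100.5 in the Emcn+/+ libraries, as labelled. Of 16681 tested genes, 1 passed an adjusted p under 0.05 (0.00599%) and it was Emcn (log2 fold change -4.83, limma adjusted p = 0.0143). Its limma adjusted p was 0.155 without Emcn-/- replicate 1, 0.0924 without Emcn+/+ replicate 1 and 0.191 without Emcn+/+ replicate 2. Some libraries stood apart. Emcn-/- replicate 2 was the lowest library for 12 of 12 endothelial markers, with a summed level of 4621 against 7114 to 7518 in the others. Emcn+/+ replicate 3 was lowest for 10 of 12 ganglion cell and 10 of 11 amacrine markers, had 17641 reads of the female-specific Xist against 1 to 5 elsewhere, and lay at 38.3 on the first principal component, the highest value. Emcn+/+ replicate 1 held far more lens RNA than any other library (summed lens markers 50249 normalised reads, against 45.9 to 244 elsewhere). No lens marker in the table was at 0 in all libraries. Retinal pigment epithelium markers summed to 9132 to 12708 in Emcn-/- and 3890 to 8177 in Emcn+/+, and ciliary body and iris markers to 6191 to 7326 in Emcn-/- and 3433 to 5496 in Emcn+/+. Rod markers summed to 830249 to 882980 in Emcn-/- and 753536 to 802716 in Emcn+/+. All 9 rod and all 8 ciliary body and iris markers had positive log2 fold changes, with none past the threshold. The part of these differences in the guidance values was not tested, and fewer cells of a type cannot be told apart from less RNA per cell in bulk retina.

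None of the 53 tested guidance genes passed the threshold, beside 0.00599% of all tested genes, and their smallest limma adjusted p was 0.424, for Dcc. Most stood slightly lower in Emcn-/- retinas. Negative log2 fold changes (Emcn-/- over Emcn+/+, on the log2(value + 1) scale) were found for 41 of 53, beside 48.0% of all tested genes, and their median was -0.09 beside 0.01 for all tested genes. Emcn-/- and Emcn+/+ values were fully apart for 4 guidance genes that were lower in Emcn-/- (Dcc, Plxna4, Plxna2 and Unc5c) and for 1 that was higher (Sema3c), beside 6.94% of all tested genes lower and 7.48% higher. At an unadjusted limma p under 0.05 there were 5 lower and 2 higher guidance genes, beside 4.47% and 3.67% of all tested genes (8.14% in either direction). edgeR and DESeq2 on the recovered reads called none either, and the smallest adjusted p of a member was 0.405 with edgeR and 0.0747 with DESeq2, both for Dcc. DESeq2 gave an adjusted p to 29 of the 53 and called 1.18% of the genes to which it gave one. Negative values were found for 44 of 53 with edgeR, beside 50.7% of all tested genes, and for 44 with DESeq2, beside 50.2%.

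Receptors and ligands were also counted apart. Of 22 tested receptors, 20 had negative log2 fold changes, with a median of -0.13, and of 31 ligands 21 did, with a median of -0.02. This difference between receptors and ligands was not tested. In the receptors the count stayed between 17 and 20 of 22 when 1 library at a time was left out, and in the ligands between 17 and 23 of 31. The receptor median then lay between -0.14 and -0.08 and the ligand median between -0.11 and -0.01. Without Emcn+/+ replicate 3 the medians were close, at -0.13 for receptors and -0.11 for ligands. The 2 receptors on the positive side were Plxnb2 and Ephb1.

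**Figure D1:**
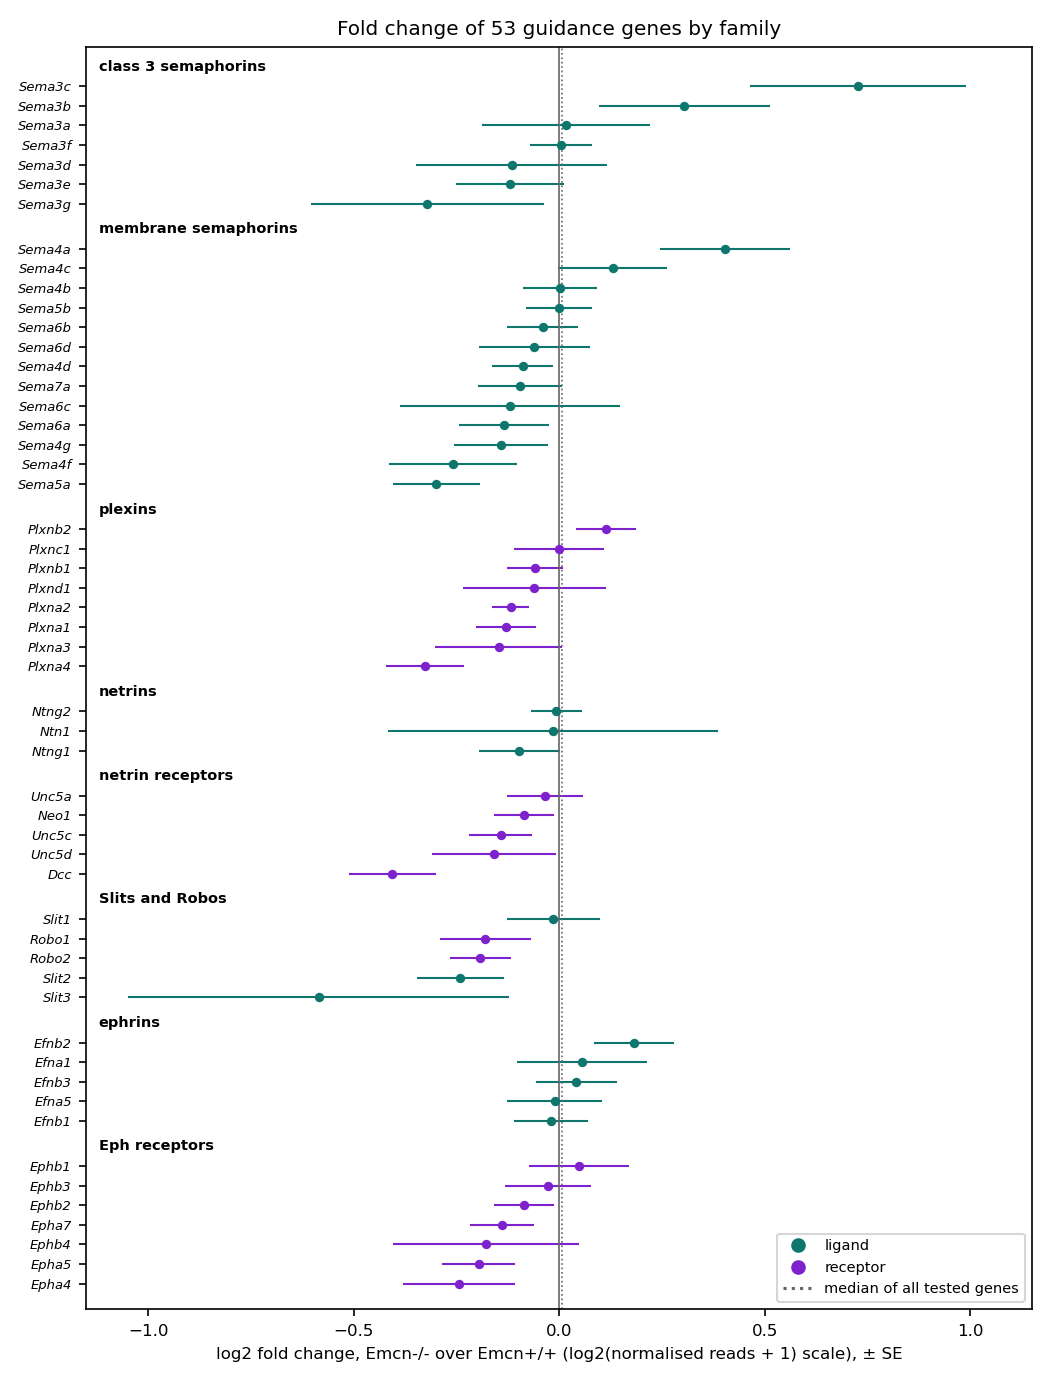
Log2 fold change (Emcn-/- over Emcn+/+, x axis) of the 53 tested guidance genes, by family, with the limma standard error as a bar; ligands are green and receptors purple. Of 22 receptors 20 lie left of 0, and Sema3c, at 0.73, lies farthest right.

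Among the 7 secreted class 3 semaphorins, 4 had positive and 3 negative log2 fold changes, and the family median was 0.0047. With edgeR and with DESeq2, 5 of 7 were negative, with medians of -0.023 and -0.021, and without Emcn+/+ replicate 3 also 5, with a median of -0.19. Sema3c, which acts through neuropilins and Plxnd1 and is known to restrain retinal neovessels, had 284, 395 and 290.2 normalised reads in the Emcn-/- libraries, against 272, 123 and 213 in the Emcn+/+ libraries. Each Emcn-/- library lay above each Emcn+/+ library, with the lowest Emcn-/- value close to the highest Emcn+/+ value. The gene lies on GRCm38 chromosome 5, 17574281 to 17730268. The estimate was a log2 fold change of 0.73 ± 0.26 (SE), the largest positive one of the 53, and it did not pass (limma adjusted p = 0.534). Without Emcn+/+ replicate 2, the library that held its lowest value, the estimate was 0.41. Over all libraries left out in turn it stayed between 0.41 and 0.97. The 6 libraries stood in the same order for Sema3c as for the summed pigment epithelium markers. This order was looked up after the values were seen. The steps between libraries differed, with sums of 9132, 12708 and 12692 in Emcn-/- libraries where Sema3c had 284, 395 and 290.2. The markers in the sum differed too. Of 12, 7 were highest in Emcn-/- replicate 2, as Sema3c was, and 5 in Emcn-/- replicate 3. Rpe65 had 697, 1086 and 694 normalised reads in Emcn-/- and Pmel 393, 516 and 1310, both chosen after their values were seen. The part of that tissue in the Sema3c values was not tested.

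Normalised reads of Sema3b, a further secreted semaphorin, numbered 371, 428 and 385 for Emcn-/- against 314, 229 and 451 for Emcn+/+, with overlap (0.30 ± 0.21, limma adjusted p = 0.716). Sema3f, a vessel repellent that signals through neuropilin-2, was the most abundant of the family per length, at 475 ± 40.6 normalised reads per kb of exon in Emcn-/- and 473 ± 33.7 in Emcn+/+ (SD, n = 3 each). The Sema3f log2 fold change was 0.0047, with a 95% interval of -0.17 to 0.18. The next genes in order of level per kb were Sema3b at 82.7 ± 6.26 and 69.4 ± 23.5, Sema3e at 36.6 ± 5.82 and 39.6 ± 4.63, and Sema3c at 45.3 ± 8.74 and 28.4 ± 10.5, in Emcn-/- and in Emcn+/+, so that Sema3e and Sema3c were not separated by their spread. Sema3d was lowest, at 3.26 ± 0.42 and 3.53 ± 0.31 per kb.

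The neuronal vessel repellents Sema3a and Sema3e did not separate the genotypes. Sema3a had 158, 133 and 166 normalised reads in Emcn-/- libraries and 199, 150.1 and 112 in Emcn+/+ libraries. The Emcn+/+ values span the Emcn-/- values on both sides. For Sema3a the log2 fold change was 0.02 with a 95% interval of -0.45 to 0.48, and it was -0.19 without Emcn+/+ replicate 3, the library lowest for ganglion cell markers. Sema3e had 402, 306 and 311 normalised reads in Emcn-/- and 387, 399 and 319 in Emcn+/+, with a log2 fold change of -0.12 and a 95% interval of -0.42 to 0.18. Sema3g, an endothelial semaphorin, had 135, 55.0 and 90.6 in Emcn-/- and 114, 107.5 and 108 in Emcn+/+ (-0.32 ± 0.28, limma adjusted p = 0.781).

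Of the 13 membrane-bound semaphorins, 10 lay on the negative and 3 on the positive side. Their median log2 fold change was -0.09, and none passed. Without Emcn-/- replicate 3 the split was 6 negative and 7 positive, with a median of 0.0063. Sema5a, which keeps retinal neurites within the inner retina through class A plexins, had 1049, 809 and 879 normalised reads in Emcn-/- and 1211, 1145 and 1003 in Emcn+/+. The highest Emcn-/- value, in replicate 1, lay above the lowest Emcn+/+ value, in replicate 3. Its log2 fold change was -0.30 ± 0.11 (limma adjusted p = 0.528; chromosome 15, 32244810 to 32696341). Sema4a, needed for photoreceptor survival, had 252, 322 and 238 in Emcn-/- and 241, 201 and 171 in Emcn+/+ (0.40 ± 0.16, limma adjusted p = 0.566). Only Emcn+/+ replicate 1 reached into the Emcn-/- range. Within Emcn-/-, the Sema4a value was highest in replicate 2 and lowest in replicate 3, with pigment epithelium sums of 12708 and 12692. Of the 12 markers in that sum, 7 were highest in Emcn-/- replicate 2 and 5 in Emcn-/- replicate 3. The part of that tissue in the Sema4a values was not tested. Sema7a, a lipid-anchored semaphorin that binds integrins and Plxnc1, was the most abundant per length, at 318 ± 39.6 per kb in Emcn-/- and 339 ± 29.1 in Emcn+/+. The remaining 10 had log2 fold changes between -0.26 for Sema4f and 0.13 for Sema4c. Sema5b, the close relative of Sema5a, was level at 344 ± 17.4 and 344 ± 4.91 normalised reads (log2 fold change -0.00092, 95% interval -0.18 to 0.18). Sema6c, chosen after its values were seen, differed most between libraries of 1 genotype in this family: 522, 469 and 255 in Emcn-/- and 446, 545 and 329.8 in Emcn+/+, with the lowest value of each genotype in replicate 3.

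Plexins are the signalling receptors of semaphorins. Of 8 tested plexins, 7 had negative log2 fold changes, with a median of -0.09. Plxna4, a receptor of Sema3a and Sema6a, had 441, 383 and 365 normalised reads in Emcn-/- against 519, 508 and 462 in Emcn+/+, without overlap (chromosome 6, 32144268 to 32588192). The estimate for Plxna4 was -0.33 ± 0.09 on the log2 scale, with a limma adjusted p of 0.473, and 3 of 3 Emcn-/- libraries lay below each Emcn+/+ library. Plxna2, a further Sema6a receptor, was tightly measured, at 3130.4, 3234 and 3166 in Emcn-/- against 3440.1, 3423 and 3483 in Emcn+/+. The gap between its genotypes was small but wider than the spread within each (-0.12 ± 0.05, limma adjusted p = 0.563). Plxnb2, which binds class 4 semaphorins, was the most abundant plexin per length and the only 1 of the 8 on the positive side, at 276 ± 7.02 per kb in Emcn-/- against 256 ± 25.1 in Emcn+/+. Its log2 fold change of 0.11 ± 0.07 had a limma adjusted p of 0.708. Plxnb1 followed at 215 ± 19.5 and 223 ± 3.96 and Plxna2 at 185 ± 3.07 and 201 ± 1.79 per kb in Emcn-/- and in Emcn+/+. Plxnb3 did not pass the filter on low values, with 1, 1 and 1 reads in Emcn-/- and 1, 6 and 8 in Emcn+/+.

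**Figure D2:**
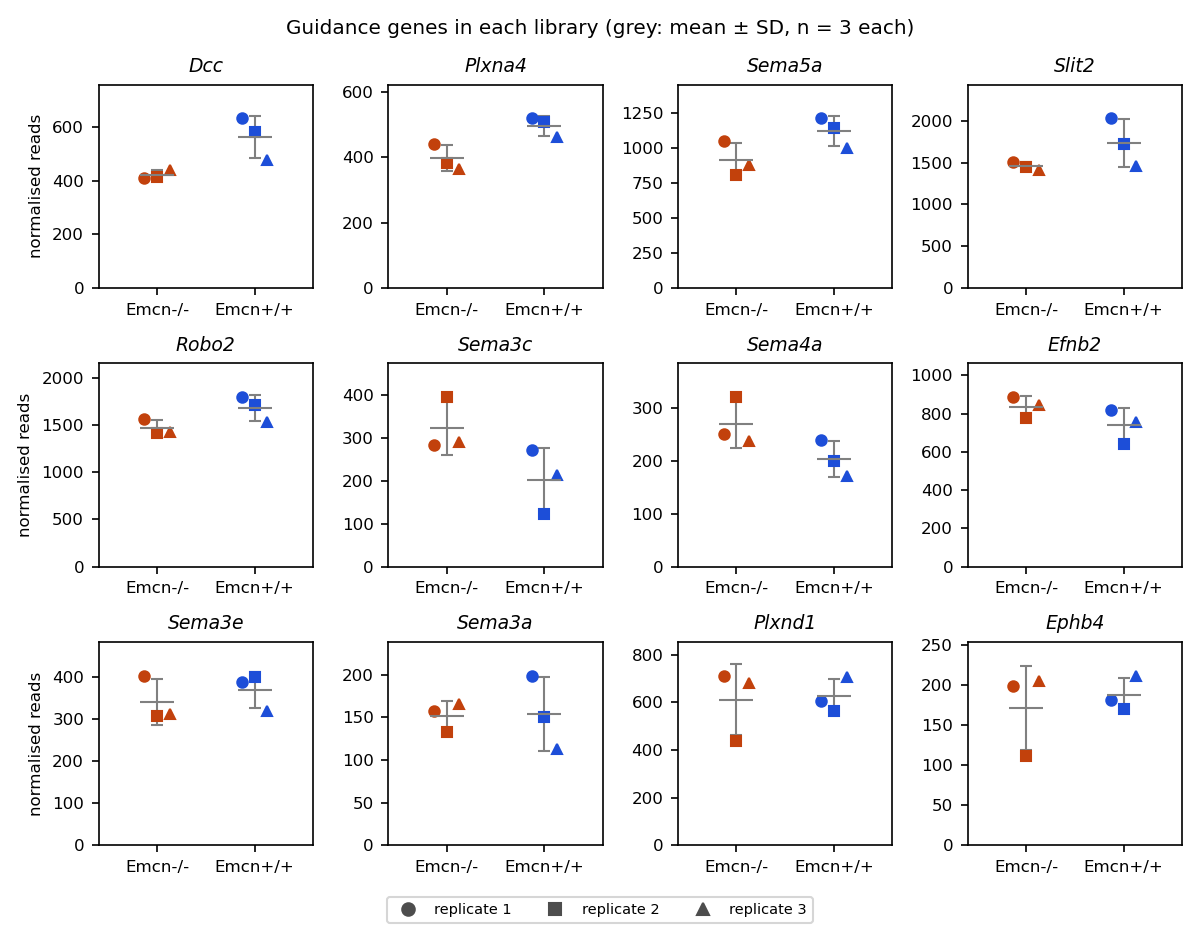
Normalised reads (y axis, from 0) of 12 guidance genes in each of the 3 Emcn-/- and 3 Emcn+/+ libraries; symbols are replicates and grey bars the mean ± SD. Dcc and Plxna4 do not overlap between the genotypes, Sema3c is higher in each Emcn-/- library, and Emcn-/- replicate 2 is lowest for Plxnd1 and Ephb4.

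Among netrin ligands, Ntn1, the secreted netrin that guides ganglion cell axons into the optic nerve and acts on vessels through Unc5b, had few reads. It had 20.4, 13.5 and 18.5 normalised reads in Emcn-/- and 9.33, 23.2 and 24.0 in Emcn+/+, and its 95% interval of the log2 fold change, -0.93 to 0.90, was wide at this depth. The lipid-anchored netrin-G2 gene Ntng2, which shapes synapses, stood at 462 ± 18.7 per kb in Emcn-/- and 465 ± 27.4 in Emcn+/+, with a log2 fold change of -0.01 (95% interval -0.15 to 0.13). Its relative Ntng1 had 777, 693 and 679 normalised reads in Emcn-/- and 882, 726 and 700.0 in Emcn+/+ (-0.10 ± 0.10, limma adjusted p = 0.808).

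All 5 netrin receptors among the 54 genes had negative log2 fold changes, with a median of -0.14. The vascular netrin receptor Unc5b, which is not among them, was at 0.17. Dcc, the attractive netrin receptor of ganglion cell and amacrine neurons, had 412, 414 and 442 normalised reads in the Emcn-/- libraries, against 633, 581 and 477 in the Emcn+/+ libraries. The Emcn-/- values lie close together below the Emcn+/+ values, and Emcn+/+ replicate 3 stands nearest to them. The gene is on chromosome 18, 71253634 to 72351069. Dcc had a log2 fold change of -0.41 ± 0.11 and the smallest p of all guidance genes (limma adjusted p = 0.424, DESeq2 adjusted p = 0.0747). Without Emcn+/+ replicate 3, Dcc passed with a log2 fold change of -0.52 and a limma adjusted p of 0.0291, and over libraries left out in turn the adjusted p ran from 0.0291 to 0.943. In that fit 151 of all tested genes passed (0.905%). The library left out there is the female one, and it is also the lowest for ganglion cell and amacrine markers, whose sums in it were 16945 and 20730.5, against 19350 to 21528 and 24014 to 28387 in the others. Unc5c, a repulsive netrin receptor, did not overlap between the genotypes either, at 561, 579 and 567 in Emcn-/- against 686, 616 and 586 in Emcn+/+ (-0.14 ± 0.08, limma adjusted p = 0.661). Neo1, which binds netrins and repulsive guidance molecules, had the highest level of the family at 173 ± 9.69 per kb in Emcn-/- and 184 ± 14.4 in Emcn+/+ (-0.09 ± 0.07). Unc5a had -0.03 and Unc5d -0.16.

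All 5 Slit and Robo genes had negative log2 fold changes, with a median of -0.19, which was -0.11 without Emcn+/+ replicate 1 and -0.05 with the length trend removed. Robo3 and Robo4, which are not among the 54 genes, were at 0.12 ± 0.49 and 0.12 ± 0.18. Robo3 had only 6 to 17 reads per library. Slit2, the Slit with the most reads, had 1508, 1452 and 1411 normalised reads in Emcn-/- and 2031, 1720.2 and 1459 in Emcn+/+. The Emcn-/- libraries lie within a narrow range, into which Emcn+/+ replicate 3 falls, so the genotypes overlap (chromosome 5, 47983138 to 48307733). Its log2 fold change was -0.24 ± 0.11 (limma adjusted p = 0.612), and it was -0.36 without Emcn+/+ replicate 3 and -0.12 without Emcn+/+ replicate 1. Robo2, a Slit2 receptor of neurons and endothelium, had 1568, 1411 and 1425 in Emcn-/- and 1795, 1712 and 1529 in Emcn+/+ (-0.19 ± 0.07, limma adjusted p = 0.563). Emcn-/- replicate 1 overlapped with Emcn+/+ replicate 3 alone. Robo1, the other Slit2 receptor measured here, had 445, 397 and 395 in Emcn-/- and 523, 399 and 487 in Emcn+/+ (-0.18 ± 0.11, limma adjusted p = 0.694). Per length, Robo2 stood highest at 86.4 ± 5.11 per kb in Emcn-/- and 98.8 ± 8.02 in Emcn+/+, above Slit2 at 57.3 ± 1.92 and 68.3 ± 11.3. Not adjusted for length, Robo2 averaged 1468 and 1679 normalised reads and Slit2 1457 and 1737, in Emcn-/- and in Emcn+/+. The order of Robo2 and Slit2 thus rests on their exonic lengths, 16983 and 25433 bases. Slit3 was lowest per length at 2.41 ± 0.55 and 4.20 ± 2.72. Slit3 had 19, 12 and 14 reads in Emcn-/- and 42, 12 and 20 in Emcn+/+, and its estimate of -0.59 is the most negative of the 53 with a standard error of 0.46.

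Ephrins and Eph receptors are membrane-bound partners on neighbouring cells. Of 5 ephrins, 3 lay on the positive side (median log2 fold change 0.04), and of 7 Eph receptors 6 lay on the negative side (median -0.14); the difference was not tested. The ephrin count turned to 3 of 5 negative without Emcn-/- replicate 3 (median -0.0017) and without Emcn+/+ replicate 2 (median -0.024). Among further Eph receptors of the pathway list, log2 fold changes were 0.13 ± 0.37 for Epha1, 0.13 ± 0.16 for Epha2 and 0.08 ± 0.10 for Epha10. They were 0.06 ± 0.08 for Ephb6 and 0.04 ± 0.08 for Epha8, against -0.12 ± 0.14 for Epha3 and -0.48 ± 0.27 for Epha6. The 95% interval of each included 0, and Epha1 had only 7 to 16 reads per library. Efnb2, the arterial ephrin, had 887, 775 and 844 normalised reads in Emcn-/- and 817, 641 and 757 in Emcn+/+ (0.18 ± 0.10, limma adjusted p = 0.659). Its Emcn-/- values lie in the upper part of the range, with Emcn+/+ replicate 1 among them. Efnb3, a neuronal ephrin, had the highest level of the ephrins at 126 ± 2.54 per kb in Emcn-/- and 123 ± 15.2 in Emcn+/+, and Efnb2 (122 ± 8.25 and 108 ± 13.03) and Efnb1 (104 ± 5.75 and 105 ± 7.89) were not separated from it by their spread in Emcn+/+. For Ephb4, the venous receptor of Efnb2, the values were 199, 111 and 205 normalised reads in Emcn-/- and 181, 171 and 212 in Emcn+/+ (-0.18 ± 0.23, limma adjusted p = 0.853). Among class A receptors, which pattern the projection of ganglion cells to the brain, Epha5 had 957, 791 and 873 in Emcn-/- and 1079.6, 1008 and 914 in Emcn+/+ (-0.20 ± 0.09, limma adjusted p = 0.616). Epha7 had 547, 492 and 472 in Emcn-/- and 553, 541 and 568 in Emcn+/+ (-0.14 ± 0.08). Epha4, the Eph receptor with the highest level per kb (77.2 ± 10.02 in Emcn-/- and 91.8 ± 15.4 in Emcn+/+), had a log2 fold change of -0.24 ± 0.14. For Epha5 and Epha7 a single Emcn-/- library, replicate 1, reached the Emcn+/+ range, and no Eph receptor passed.

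**Figure D3:**
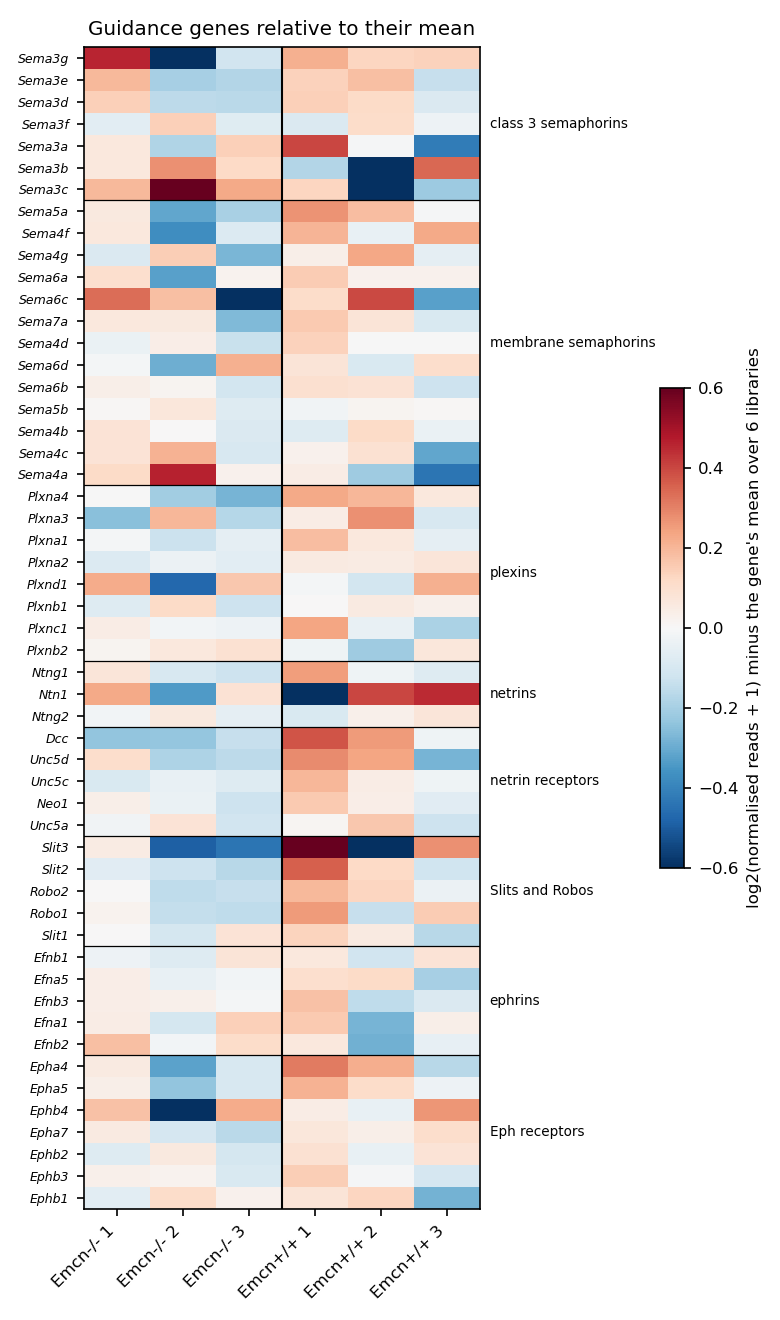
Each row is a tested guidance gene and each column a library, with colour giving log2(normalised reads + 1) minus the gene's mean over the 6 libraries, limited to ±0.6 (9 cells lie beyond). Emcn+/+ replicate 1 is the highest library for 26 of the 53 genes, and Emcn-/- replicate 3 is the lowest for 15.

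The highest value of a guidance gene fell in Emcn+/+ replicate 1 for 26 of 53 genes, and the lowest in Emcn-/- replicate 3 for 15 and in Emcn-/- replicate 2 for 12. Without Emcn+/+ replicate 1, the library with the most lens RNA, 37 of 53 log2 fold changes were negative and the median was -0.06. The sample titles form 2 number series, 144 to 148 and 186 with 188. Within the first, with 2 libraries of each genotype, the log2 difference was negative for 39 of 53 guidance genes (73.6%, beside 48.1% of all tested genes), and between the single libraries of the second for 34 (64.2%, beside 49.4%). Both were negative for 27 genes (50.9%, beside 26.5% of all tested genes). For receptors alone the counts were 21 of 22 in the first series and 14 of 22 in the second (95.5% and 63.6%), and for ligands 18 and 20 of 31 (58.1% and 64.5%), so that ligands were negative about as often as receptors in the second series. For Dcc the log2 difference was -0.55 in the first series and -0.11 in the second, for Slit2 -0.34 and -0.05, for Plxna4 -0.32 and -0.34, and for Sema3c 0.87 and 0.44.

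Plxnd1, Ephb4 and Sema3g were lowest in the library with the least endothelial RNA, while the endothelial Robo4 and the vascular Unc5b were not. In Emcn-/- replicate 2 the summed level of 12 endothelial markers, Emcn among them, was 0.639 times the median of the other 5 libraries, and Plxnd1, the endothelial receptor of Sema3e, was at 0.644 times that median. Ephb4 was at 0.559 and the endothelial ligand Sema3g at 0.509 times the median of the others. Robo4 had 105, 101 and 122 normalised reads in Emcn-/- and 81.9, 120.5 and 103 in Emcn+/+, and Unc5b had 499.5, 438 and 472 in Emcn-/- and 368, 396 and 500.2 in Emcn+/+, each lowest in Emcn+/+ replicate 1. The median ratio of all 53 tested guidance genes was 0.948, and 11 were at or under 0.8. Plxnd1 had 713, 439.8 and 683 normalised reads in Emcn-/- and 606, 565 and 709 in Emcn+/+, with a log2 fold change of -0.06 ± 0.17 (limma adjusted p = 0.942). Without Emcn-/- replicate 2 the estimates were 0.16 for Plxnd1, 0.11 for Ephb4 and 0.01 for Sema3g. The direction of all 3 genes turned without that library, and Plxnd1 was also at 0.03 without Emcn+/+ replicate 3. Their 95% intervals over all libraries, -0.45 to 0.33, -0.69 to 0.34 and -0.96 to 0.32, lie on both sides of 0.

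**Figure D4:**
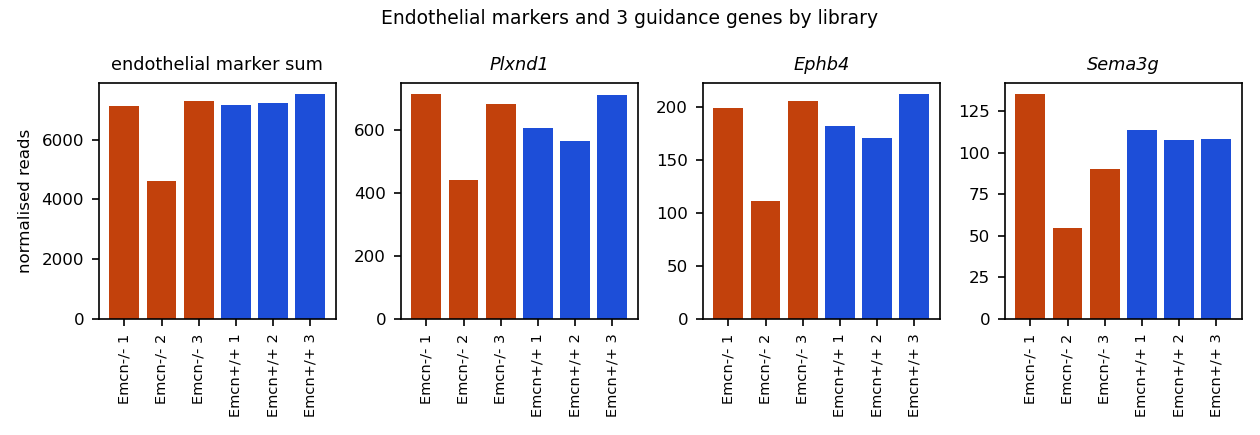
Normalised reads (y axis, from 0) in each Emcn-/- (orange) and Emcn+/+ (blue) library for the summed endothelial markers and for Plxnd1, Ephb4 and Sema3g. Emcn-/- replicate 2 is the lowest bar in each panel, with a marker sum of 4621.

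Guidance genes have long exonic lengths, and fold changes across all genes followed length. The median exonic length was 7679 bases for tested guidance genes and 9137 for their receptors, beside 4151 for all tested genes. When all tested genes were cut into 5 equal groups by length, of the longest group (7284 bases or more), 72.4% had negative log2 fold changes, with a median of -0.07, while in the shortest group 35.1% did, with a median of 0.08. In that longest group lay 28 of the 53 guidance genes, of which 26 had negative log2 fold changes, with a median of -0.13. In the next longest group 7 of 13 were negative. Across the 53 genes the log2 fold change and exonic length had a Spearman correlation of -0.49, and across the 16419 tested genes with a length it was -0.28, with all genes sharing the same libraries. After the trend with length was removed from each library, 34 of 53 guidance genes were negative (beside 46.5% of all genes). Their median was -0.04 in place of -0.09. Negative values were then found for 16 of 22 receptors (median -0.05) and 18 of 31 ligands (median -0.03). The estimate then was -0.03 for Slit2, -0.05 for Robo2, 0.02 for Plxna2 and for Unc5c, -0.14 for Sema5a, -0.22 for Plxna4 and -0.30 for Dcc, while Sema3c stayed at 0.75.

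**Figure D5:**
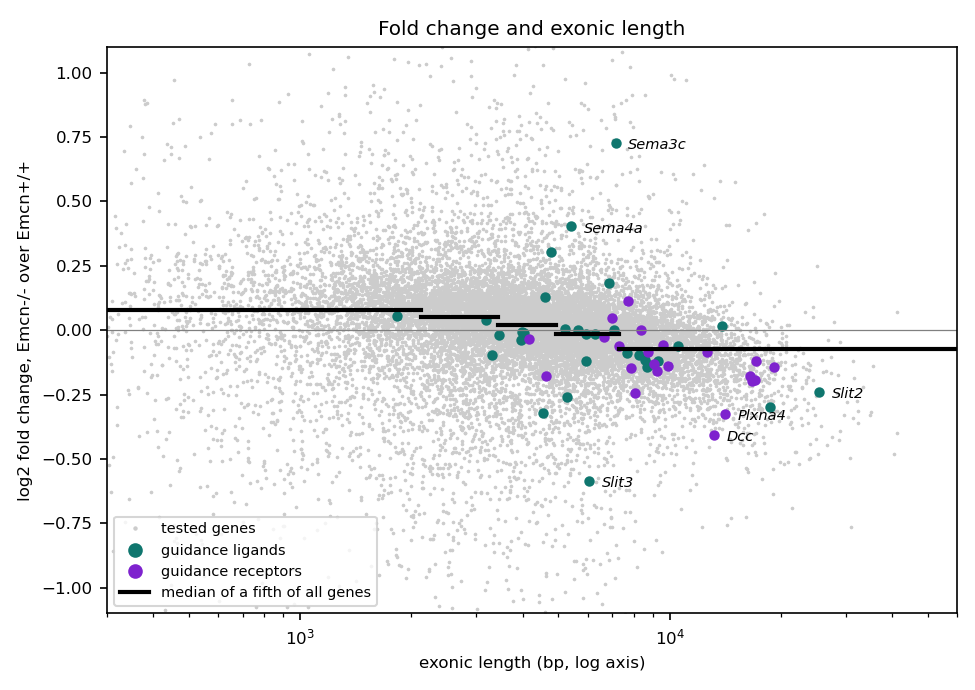
Log2 fold change (Emcn-/- over Emcn+/+, y axis) against exonic length (x axis, log scale) for tested genes (grey; 209 of 16419 lie outside the axes) and guidance genes (green ligands, purple receptors), with the median of each of 5 length groups as a black bar. The bars fall from 0.08 to -0.07, and 26 of the 28 guidance genes in the longest group lie below 0.

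Other genes of the pathway gave no call either. Of 27 tested further guidance ligands, receptors and co-receptors, 0 passed in either direction, 10 were negative and 17 positive, with a median log2 fold change of 0.04. The semaphorin and growth factor co-receptor Nrp1 averaged 276 ± 36.7 normalised reads in Emcn-/-, against 272 ± 15.9 in Emcn+/+ (SD, n = 3 each; 0.01 ± 0.12). The vascular netrin receptor Unc5b had 469.8 ± 31.0 and 421 ± 69.6 (0.17 ± 0.12), and the endothelial Robo4 had 109 ± 11.3 and 102 ± 19.3 (0.12 ± 0.18). The smallest p-values of that list belonged to the axonal adhesion genes Nrcam (1703 ± 87.5 against 1964 ± 156, -0.20 ± 0.07, limma adjusted p = 0.526) and L1cam (660.4 ± 42.9 against 803 ± 155, -0.26 ± 0.13, 0.646). Of 28 cytoplasmic effectors, 0 passed, 16 were negative and 12 positive, with a median of -0.03. Trio (-0.20 ± 0.07, limma adjusted p = 0.534) and Arhgef12, which binds class B plexins (-0.21 ± 0.08, 0.563), had the smallest p-values of that list, and both stood lower in Emcn-/-.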

How the data were processed

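Poly-A RNA of retina samples was sequenced from 1.3 µg of RNA per library, per the labels' protocols. Genome build GRCm38 comes from the submitters' processing notes, and the aligner, counter, annotation and scaling are not given in the sources read for this work. The protocol names a directional and a non-directional second strand without saying which was made, so reads of a gene and of one overlapping it on the other strand may be mixed. The authors deposited a scaled read signal per gene. Dividing by the smallest step of a library gave whole reads for 100% of values, within 0.001 of a read; the inverse steps, 0.916 to 1.08, equal DESeq2's size factors. A count of 0 allows up to 3 reads, 2.77 to 3.28 normalised reads, and such limits cover counting error only. The intervals of log2 fold changes come from the limma fit and rest on variation between libraries.

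Genotypes were compared on log2(value + 1) in limma 3.58.1 under R 4.3.3, with a mean-variance trend, genotype as the only term, Benjamini-Hochberg adjustment over all tested genes and a threshold of 0.05. edgeR's filterByExpr (minimum count 10) chose the genes to test from the recovered reads. The fold change scale understates low genes. edgeR 4.0.16 (quasi-likelihood test, TMM scaling) and DESeq2 1.42.0 were run on recovered reads as alternatives; the others were the scaling, filter, pseudocount (0.5 and 5), each library left out, a term for the title-number series, and removal of a loess trend on exonic length. Positions and exonic lengths are from GENCODE M21 (GRCm38), which held 27386 of the 28627 gene IDs. An exonic length is the union of all annotated exons of a gene and can exceed the length of any single transcript. Promoters are from RefSeq on GRCm38.p6. A symbol on several IDs (21 symbols) went with the ID of highest mean. Replicate numbers follow accession order and pair nothing. Genes were named by rule: in each of 8 families the 2 smallest p and the highest level per kb, 10 genes with vascular roles whatever their value, and from each pathway list the 2 smallest p, with Nrp1, Unc5b and Robo4. The members, lists and alternatives were chosen with earlier results of these data known. Scripts were tested on simulated data.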

Additional observations from a re-analysis of the deposited data

How the results depend on the processing

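No paired analysis was possible because the labels give no replicate numbers that tie an Emcn-/- sample to an Emcn+/+ sample. A term for the 2 series of title numbers could be fitted and changed no call. The count of guidance genes called was 0 under every alternative listed in the processing summary other than leaving out libraries, where it ranged from 0 to 1 (1, Dcc, without Emcn+/+ replicate 3). The count over all genes was 1 in the main test, 82 with DESeq2 and 0 with the length trend removed. With 1 library left out it ran from 0 to 151, and the cause was not tested. Emcn is not among the 82, because DESeq2 gave it no adjusted p (log2 fold change -5.14). In the main test Emcn made up the count of 1. Its limma adjusted p ran from 0.00649 to 0.191 with 1 library left out (log2 fold change -5.23 to -4.50). With the length trend removed its limma adjusted p was 0.0708. The median log2 fold change of the 53 guidance genes was negative throughout and lay between -0.11 and -0.06 with 1 library left out.

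Of 36 genes named by rule, 22 kept the sign of their log2 fold change under all 15 alternatives and 14 did not. Away from single libraries, sign changes were -0.0027 with TMM scaling, -0.0022 with edgeR and -0.00035 with DESeq2 for Sema3f, -0.023 with edgeR and -0.021 with DESeq2 for Sema3a, and, with the length trend removed, 0.022 for Plxna2, 0.016 for Unc5c and 0.0016 for Ntn1. With 1 library left out, sign changes gave ranges of -0.065 to 0.061 for Sema3f, -0.16 to 0.013 for Sema7a, -0.16 to 0.0048 for Ntng1, -0.056 to 0.027 for Ntng2, -0.024 to 0.14 for Efnb3, -0.19 to 0.22 for Sema3a, -0.63 to 0.011 for Sema3g, -0.19 to 0.16 for Plxnd1, -0.43 to 0.21 for Ntn1, -0.33 to 0.11 for Ephb4, -0.066 to 0.12 for Nrp1 and -0.030 to 0.25 for Robo4. L1cam passed without Emcn+/+ replicate 3 (-0.43, limma adjusted p = 0.0465). Depth limits Ntn1, Slit3, Sema3d and Plxnb3, which had 54, 45, 86 and 3 reads over the Emcn-/- libraries and 56, 74, 90 and 15 over the Emcn+/+ libraries. Of the further pathway genes given above, it also limits Robo3 and Epha1, with 38 and 37 reads over the Emcn-/- libraries and 33 each over the Emcn+/+ libraries.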
